A study of Mus musculus with 3 samples.

Results

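The immediate-early genes Fos, Fosb, Jun, Junb, Jund, Egr1, Ier2, Ier3, Ier5 and Dusp1 were followed in mouse embryonic stem cells exposed to tubercidin. The 10 genes were chosen by symbol, as members of the Fos, Jun, Egr and Ier families plus the phosphatase gene Dusp1, and make up 10 of the 32285 genes in the deposited matrices. The question put to them was which of them kept their expression after the drug, and in what share of cells they were still detected once cells of different depth were made comparable. The cells were of the E14 line, a 129/Ola embryonic stem cell line grown on gelatin in medium with fetal bovine serum and leukaemia inhibitory factor. One day after seeding they received 10 uM tubercidin, an adenosine analogue, during 3 h or 6 h, whereas control cultures were kept in the solvent DMSO during 6 h, so the 3 h library has no control of its own duration. All cultures were detached with trypsin and profiled by droplet single-cell RNA sequencing of polyadenylated RNA. Each condition is 1 library of 1 line, so no difference below was tested and no p-value is given.

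Immediate-early genes are transcribed within minutes of a stimulus such as serum, from transcription factors already present in the cell, without new protein synthesis. Growth factor signals reach them through the ERK and p38 kinase cascades, which act on the serum response factor with its ternary complex partners and on CREB. Many of their mRNAs are short-lived and carry AU-rich elements in the 3' untranslated region, so their level follows ongoing transcription closely. The Fos and Jun proteins pair to form the AP-1 transcription factor, Egr1 is a zinc finger transcription factor, and Dusp1 dephosphorylates p38, JNK and ERK.

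Called cells numbered 2031 with DMSO, 2365 with tubercidin for 3 h and 2926 for 6 h, with medians of 48452, 11877 and 8004.5 UMIs (unique molecular identifiers, each counting 1 captured RNA molecule) per cell. Set against the control, the median was lower by a factor of 4.08 at 3 h and of 6.05 at 6 h, and sequencing depth and RNA content per cell cannot be told apart from these counts. Levels are therefore given per 1000000 of the library's cell UMIs (CPM), which measure a gene against the rest of the transcriptome of that library. Intervals are exact 95% intervals for counting error only and say nothing of how far another culture would differ. Any pair of libraries shared 1 called cell barcode. The stem cell label held: all 9 pluripotency markers, among them Pou5f1, Sox2 and Nanog, were detected in every library, with summed levels between 3955 and 5527 CPM. Markers of other cells summed to 0.877 to 1.99 CPM for fibroblasts (2 of 7 at 0 in each library), 6.69 to 10.8 CPM for primitive endoderm (Sox17 at 0 at 6 h), 9.23 to 13.6 CPM for trophoblast (Hand1 at 0 at 6 h) and 0.0286 to 0.851 CPM for 2-cell-like cells (3 to 5 of 6 at 0). Their part in the results below was not tested.

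After 3 h the immediate-early genes stood lower relative to the library than in the control, with the exception of Ier5. By a rule of size, a log2 ratio of CPM + 1 of at least 1, the 5 genes Junb, Jund, Ier2, Ier3 and Dusp1 were at least 2-fold lower and 0 were higher. Of the 10 genes, 9 reached a mean of 1 CPM over the 3 libraries, and Fosb did not. Among all 13587 genes with such a mean, 6.20% were at least 2-fold lower and 1.60% at least 2-fold higher at 3 h, and among the 7884 genes reaching a mean of 10 CPM, 5.54% and 0.888%. The median log2 ratio over the 9 genes was -1.11, against -0.25 over the 13587 genes and -0.27 over the 7884. With TMM factors, which moved the median of the 13587 genes to -0.08, the shares past 2-fold were 3.47% lower and 2.58% higher, and with median-of-ratios factors, which moved it to -0.04, they were 3.00% and 2.84%. Jund, at -0.92 and -0.87, was then no longer past 2-fold, while Junb, Ier2, Ier3 and Dusp1 still were. Counting intervals of the ratio lay below 0 for 8 of the 10 genes, and those of Fosb and Ier5 included 0. Such intervals were not counted over all genes, whose median also lay below 0. Of the 43 other immediate-early genes listed further below, 27 had an interval below 0 and 9 above it. Of the 28 upstream kinases and factors listed there, 20 lay below 0 and 2 above it.

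After 6 h the set had split. Egr1, Ier2, Ier3 and Dusp1 lay at least 2-fold below the control and 0 genes lay as far above it, while Junb and Jund stood nearer to their control levels than at 3 h. The background at 6 h was 5.11% of the 13587 genes lower and 4.56% higher, and 4.41% and 2.33% of the 7884. The median log2 ratio over the 9 genes was -0.71, against -0.09 over the 13587 genes and -0.12 over the 7884. The counting interval lay below 0 for 9 of the 10 genes, all but Fosb. Over all genes this was again not counted. Of the 43 other immediate-early genes 26 lay below 0 and 7 above it, and of the 28 upstream kinases and factors 16 and 8. The comparisons of 3 h and of 6 h with the control share the control library, so they are not independent of each other.

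The 6 h library set directly against the 3 h library showed how far the genes parted. Egr1 was at least 2-fold lower at 6 h and Junb at least 2-fold higher, against 0.243% and 2.69% of the 13587 genes and 0.165% and 1.64% of the 7884. The median over the 9 genes was -0.22, against 0.16 and 0.14 over those gene sets. The intervals of Egr1, Ier2 and Ier5 lay below 0, those of Junb, Jund and Ier3 above 0, and those of Fos, Fosb, Jun and Dusp1 included 0. Intervals on both sides of 0 were also found among the 43 other immediate-early genes, 13 below and 11 above, and all genes were not counted. As UMIs per cell without scaling to the library total, Junb was still higher at 6 h, whereas Jund was lower. Their log2 ratios with a pseudocount, a constant added to both levels, were 0.65 and -0.17, and their plain ratios were 1.77 and 0.884. Summed over the 10 genes, the level was 403 CPM with DMSO, 166 CPM after 3 h and 168 CPM after 6 h, a sum made up mostly of Ier2, Jund and Junb, whose own levels lay apart between 3 h and 6 h.

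**Figure D1:**
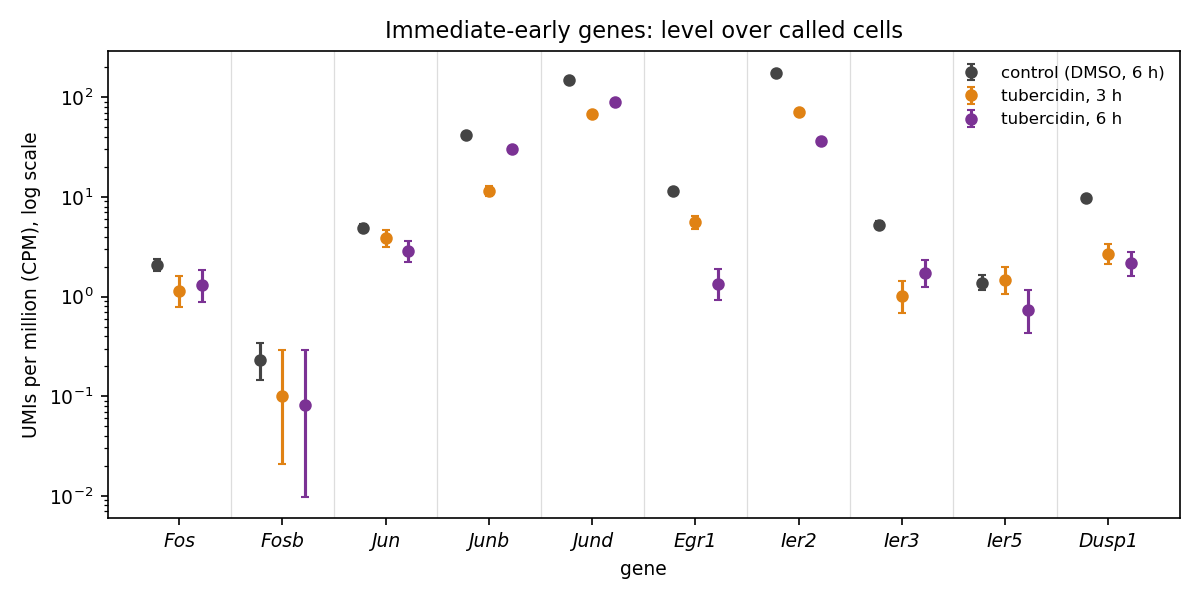
Level of each immediate-early gene in the called cells of the 3 libraries, in CPM on a log scale, with points for the DMSO control, tubercidin 3 h and tubercidin 6 h and bars for exact 95% Poisson intervals. Egr1 and Ier2 step down from control to 3 h to 6 h, whereas Junb is lowest at 3 h, at 11.5 CPM, and stands at 30.5 CPM at 6 h.

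Fos encodes the partner that gives AP-1 its strongest activity, and it was scarce in these cells already without the drug. The gene Fos (ENSMUSG00000021250, chr12:85473890-85477273, plus strand, mm10, with 4 exons) stood at 2.08 CPM with DMSO (218 UMIs, 1.81 to 2.37), 1.14 CPM after 3 h (34 UMIs, 0.788 to 1.59) and 1.30 CPM after 6 h (32 UMIs, 0.887 to 1.83). Both treated libraries lay below the control, and they overlapped each other within counting error. The level kept was 54.7% of the control after 3 h (37.0 to 78.8%) and 62.4% at 6 h (41.6 to 90.7%), with log2 ratios of -0.53 and -0.42, so Fos did not pass 2-fold at either time. Before depth was made equal, a control cell held up to 11 Fos UMIs and 7 control cells held 3 or more. No cell at 3 h or 6 h held more than 1, at the lower depth of those libraries. In cells thinned at random to equal depth, there were 11 Fos UMIs in 11 control cells. There were then 7 in 7 cells at 3 h and 13 in 13 cells at 6 h. At equal depth no cell of any library thus held more than 1. With so few Fos UMIs left, that depth can hardly show cells with several, so the contrast between cells could not be assessed. In control cells thinned only to 11000 UMIs the highest count of Fos was 3. Fosb, the closest relative of Fos (ENSMUSG00000003545, chr7:19302696-19310051, minus strand), had 24, 3 and 2 UMIs in the control, 3 h and 6 h libraries, or 0.229, 0.100 and 0.0810 CPM. Its level kept was 43.9% (8.45 to 144%) and 35.4% (4.06 to 143%), intervals too wide to place it.

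The Jun family, whose proteins can form AP-1 with Fos proteins or with each other, did not take a common course. Jun (ENSMUSG00000052684, chr4:95049034-95052222, minus strand), the best known activator of the family, stood at 4.91 CPM with DMSO (4.49 to 5.35), 3.85 CPM after 3 h (3.18 to 4.62) and 2.88 CPM after 6 h (2.25 to 3.63). The 3 h interval overlapped those of both other libraries, and the 6 h interval lay below that of the control, with 78.4% (63.4 to 96.1%) and 58.6% (45.1 to 75.2%) of the control level kept, and log2 ratios of -0.29 and -0.61. At 3 h that ratio was close to the median of all genes, -0.25, and it was -0.09 with median-of-ratios factors.

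Junb (ENSMUSG00000052837, chr8:84974484-84978718, minus strand), often a weaker activator that can antagonise Jun, had the lowest log2 ratio of CPM + 1 of the set at 3 h, although Ier3 kept a smaller percentage, and it was the 1 member at least 2-fold higher at 6 h than at 3 h. It stood at 42.3 CPM with DMSO (41.0 to 43.5), 11.5 CPM after 3 h (10.3 to 12.8) and 30.5 CPM after 6 h (28.4 to 32.8). The 3 intervals did not overlap, and the 6 h value lay between the others. The level kept was 27.2% (24.3 to 30.4%) after 3 h and 72.2% (66.7 to 78.0%) after 6 h. The log2 ratio of -1.79 at 3 h ranked 40 from the lowest among the 13587 genes. From 3 h to 6 h the ratio was 1.33, and 99.4% of those genes had a lower ratio in that comparison. In total 4432, 344 and 753 Junb UMIs were counted.

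Jund (ENSMUSG00000071076, chr8:70698949-70700616, plus strand), the member of the family with the steadiest expression in most cells, took the same order with smaller differences. It stood at 149 CPM with DMSO (147 to 151), 68.4 CPM after 3 h (65.4 to 71.4) and 90.6 CPM after 6 h (86.9 to 94.4). The control was highest, 3 h lowest, and no interval overlapped another. The level kept was 45.9% (43.9 to 48.1%) after 3 h and 60.9% (58.2 to 63.6%) after 6 h, with log2 ratios of -1.11 and -0.71.

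Egr1 (ENSMUSG00000038418), a zinc finger factor and a standard readout of ERK signalling, was the member with the lowest share of its control level at 6 h. It stood at 11.5 CPM with DMSO (1211 UMIs, 10.9 to 12.2), 5.59 CPM after 3 h (167 UMIs, 4.77 to 6.50) and 1.34 CPM after 6 h (33 UMIs, 0.920 to 1.88). Each later library lay below the one before, with no overlap of the intervals. The level kept was 48.4% (40.9 to 56.9%) after 3 h and 11.6% (7.93 to 16.4%) after 6 h, the latter 8.64-fold below the control. On the scale of CPM + 1 the log2 ratio was -0.93 at 3 h, just short of 2-fold, and -2.42 at 6 h, which ranked 10 from the lowest of the 13587 genes. The 3 h ratio passed 2-fold with a pseudocount of 0.1 CPM, at -1.03, and against the shallowest control cells, at -1.13. From 3 h to 6 h the ratio was -1.49, which ranked 6 from the lowest.

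Ier2 (ENSMUSG00000053560, chr8:84661331-84662852, minus strand), a small nuclear protein of the immediate-early response, followed Egr1 with far more molecules behind it. It stood at 177 CPM with DMSO (18550 UMIs, 174 to 179), 70.8 CPM after 3 h (2116 UMIs, 67.8 to 73.9) and 36.6 CPM after 6 h (904 UMIs, 34.3 to 39.1). The libraries were ordered as for Egr1, again without overlap. The level kept was 40.0% (38.2 to 41.9%) after 3 h and 20.7% (19.4 to 22.1%) after 6 h, with log2 ratios of -1.31 and -2.24, the latter 17 from the lowest of all genes. From 3 h to 6 h the ratio was -0.93, and it passed 2-fold with TMM factors, at -1.15, and with median-of-ratios factors, at -1.16.

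Ier3, which encodes a protein that modulates cell survival and ERK activity, had its lowest level at 3 h, and Ier5, a regulator of heat shock factor activity, had its lowest at 6 h. Ier3 (ENSMUSG00000003541, chr17:35821684-35822923, plus strand) stood at 5.22 CPM with DMSO (4.80 to 5.68), 1.00 CPM after 3 h (0.677 to 1.43) and 1.74 CPM after 6 h (1.26 to 2.35). Its level kept was 19.2% (12.8 to 27.7%) after 3 h and 33.3% (23.9 to 45.5%) after 6 h, with log2 ratios of -1.64 and -1.18. Both treated libraries thus lay well below the control, and the interval of the 6 h to 3 h ratio lay above 0. Ier5 (ENSMUSG00000056708, chr1:155096361-155099636, minus strand) was counted 145, 44 and 18 times, or 1.38 CPM with DMSO (1.17 to 1.63), 1.47 CPM after 3 h (1.07 to 1.98) and 0.729 CPM after 6 h (0.432 to 1.15). At 3 h it kept 106% of its control level (74.2 to 150%), the highest value of the set, and at 6 h it kept 52.8% (30.4 to 86.4%). The log2 ratio of Ier5 at 3 h was 0.05. In UMIs per cell without scaling to the library total, the log2 ratio taken with a pseudocount was -0.81, and the plain ratio was 0.261. The direction of Ier5 at 3 h thus depends on whether the library total is taken as the base.

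Dusp1 (ENSMUSG00000024190, minus strand of chromosome 17), the nuclear phosphatase that switches off p38 and JNK, was low in both treated libraries. It stood at 9.69 CPM with DMSO (1016 UMIs, 9.10 to 10.3), 2.68 CPM after 3 h (80 UMIs, 2.12 to 3.33) and 2.15 CPM after 6 h (53 UMIs, 1.61 to 2.81). The treated libraries overlapped each other and lay apart from the control. It kept 27.6% (21.7 to 34.7%) and 22.2% (16.5 to 29.2%) of the control level, with log2 ratios of -1.54 and -1.76.

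**Figure D2:**
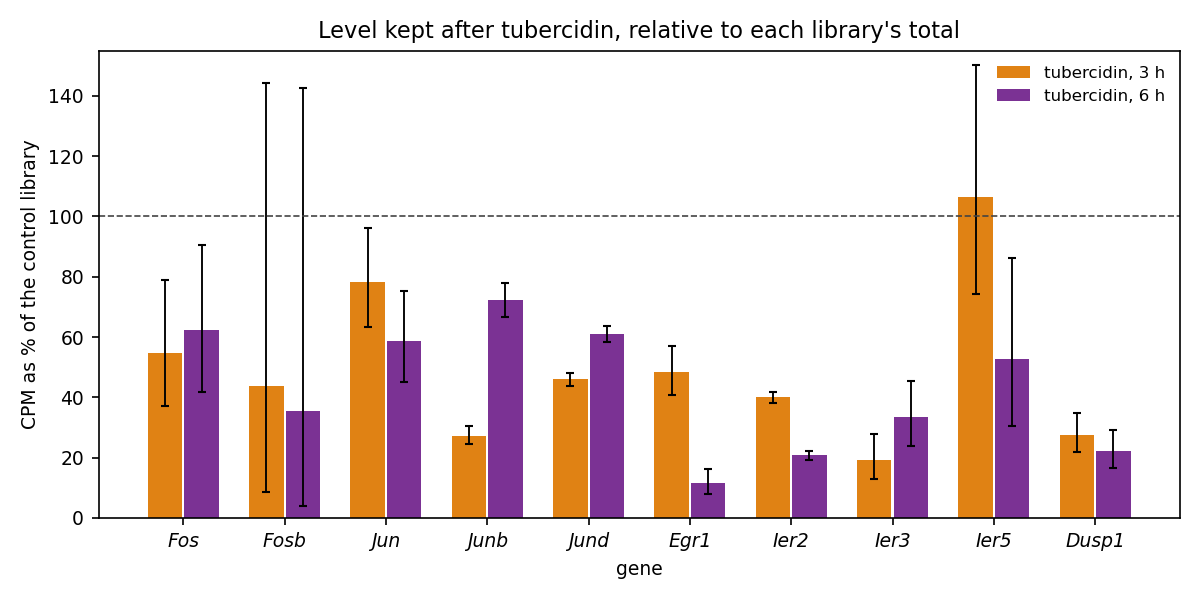
CPM of each immediate-early gene at 3 h and 6 h as a percentage of its CPM in the control library, with bars from 0, exact 95% counting intervals, and a dashed line at the control level. At 6 h the bars range from 11.6% for Egr1 to 72.2% for Junb, and the wide intervals of Fosb reflect 3 and 2 UMIs.

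**Figure D3:**
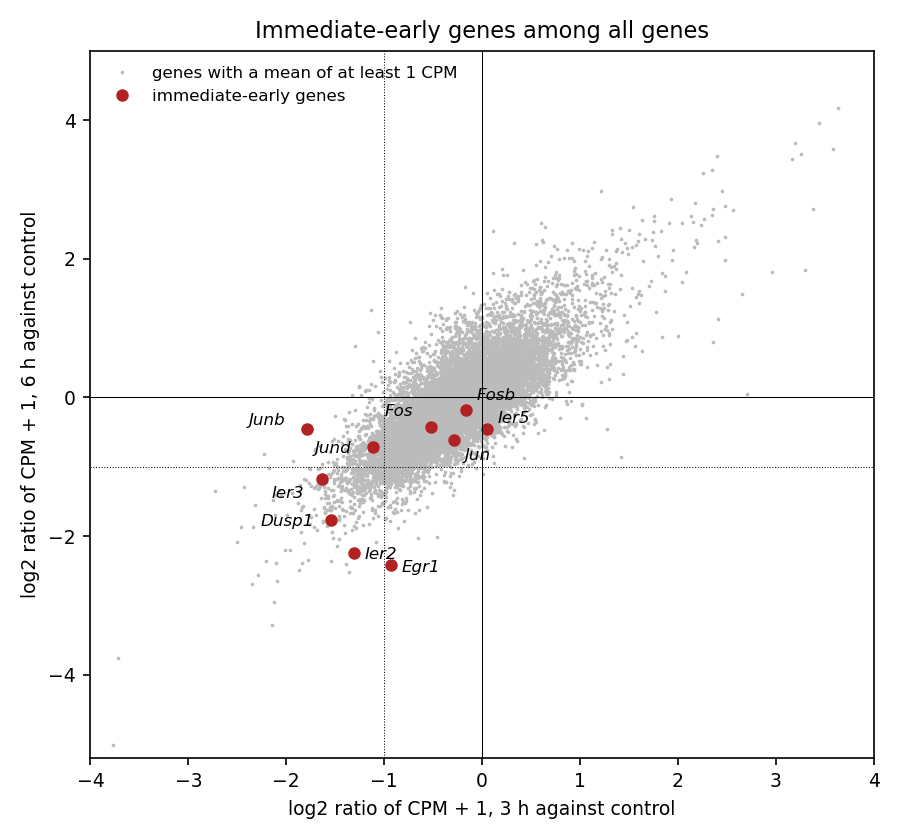
Log2 ratio of CPM + 1 against the control at 3 h (x axis) and at 6 h (y axis) for genes reaching a mean of 1 CPM (grey) and the 10 immediate-early genes (red), with dotted lines at 2-fold lower. Both axes use the same control library, and Egr1 and Ier2 lie at the low edge of the 6 h axis while Junb lies at the low edge of the 3 h axis.

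The sequences upstream of Fos, Junb and Dusp1 are shown because the table gives them for genes of 3 courses: Fos, not past 2-fold at either time, is the textbook serum-responsive promoter, Junb was low at 3 h and higher at 6 h, and Dusp1 was low at both times. The course of Egr1 and Ier2, lower at each later time, is not among them. Each line holds the 250 bases before the transcription start in RefSeq on GRCm38.p6, the build also called mm10, written 5′ to 3′ on the gene's own strand, at chr12:85473640-85473889 (plus strand) for Fos, chr8:84978749-84978998 (minus strand) for Junb and chr17:26508473-26508722 (minus strand) for Dusp1. Capitals mark TGACG, the core bound by CREB and related factors, the full palindrome TGACGTCA, and the TATA motif TATAA.
Fos: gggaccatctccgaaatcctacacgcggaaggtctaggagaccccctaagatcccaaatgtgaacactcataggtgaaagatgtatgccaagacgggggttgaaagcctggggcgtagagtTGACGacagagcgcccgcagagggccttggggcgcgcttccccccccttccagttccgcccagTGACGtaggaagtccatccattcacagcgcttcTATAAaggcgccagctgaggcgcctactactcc
Junb: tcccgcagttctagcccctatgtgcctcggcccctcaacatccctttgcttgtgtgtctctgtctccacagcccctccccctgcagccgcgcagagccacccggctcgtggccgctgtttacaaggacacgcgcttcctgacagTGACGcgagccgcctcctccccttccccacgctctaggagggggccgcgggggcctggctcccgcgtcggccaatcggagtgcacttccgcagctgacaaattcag
Dusp1: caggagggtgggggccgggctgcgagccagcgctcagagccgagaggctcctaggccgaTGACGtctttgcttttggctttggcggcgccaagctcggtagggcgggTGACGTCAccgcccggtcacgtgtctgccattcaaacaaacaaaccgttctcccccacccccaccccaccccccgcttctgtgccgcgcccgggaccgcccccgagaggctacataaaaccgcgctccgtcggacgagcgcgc
Fos held TGACG at 129 and 66 bases before the start and TATAA at 33 bases before it, Junb held TGACG at 106 bases before the start, and Dusp1 held TGACGTCA at 143 bases before it and TGACG at 191. Motifs were searched on both strands in windows of 300 bases, from 250 before to 50 after the start, for the 8 members matched in the RefSeq table by symbol (all but Egr1 and Ier2). TGACG was found in 4 of the 8 (Dusp1, Fos, Fosb and Junb) against 20.8% of 32851 windows of all genes. TGACGTCA, which contains TGACG on both strands, was found in 1 of the 8 against 1.79%. TATAA was in 4 of the 8 (Fos, Ier3, Ier5 and Junb, in Junb at the RefSeq start itself) against 24.9%, and CCAAT in 4 of the 8 (Ier3, Ier5, Jun and Junb) against 37.4%. The AP-1 site TGANTCA was in 0 of the 8 against 7.81%, and the CArG box in 0 of the 8 against 1.63%, which says only that those letters are not in these windows. The Junb and Jund windows lie around RefSeq starts upstream of the starts in GENCODE. For Junb, GENCODE ends the gene at chr8:84978718 on the minus strand, so its TATAA lies upstream of that start. All positions given here are counted from the RefSeq start.

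The 3' ends of the transcripts were compared for the pentamer ATTTA, the AUUUA core of AU-rich elements in DNA letters, because such elements mark short-lived mRNAs. The densest stretches in the 3' untranslated regions of 4 members are shown with the pentamers in capitals, 5′ to 3′ on the gene's strand, from mm10.
Fos: ATTTATTTA
Dusp1: ATTTATTTA
Ier3: ATTTAtgtATTTA
Jun: ATTTAtaatcataggaaagATTTA
They lie at chr12:85477111-85477119 (plus strand) for Fos, chr17:26506167-26506175 (minus strand) for Dusp1, chr17:35822493-35822505 (plus strand) for Ier3 and chr4:95049210-95049233 (minus strand) for Jun. In the Fos and Dusp1 stretches the 2 pentamers overlap by 1 base. Counted over the whole 3' untranslated region, Ier3 held 5, Fos, Jun and Dusp1 4 each, Junb, Egr1 and Ier5 2 each, Fosb and Jund 1 each and Ier2 0. At least 1 was present in 90.0% of the 10 members, against 68.4% of 12309 coding genes that reached a mean of 1 CPM. For 3 or more the shares were near each other, at 40.0% and 37.7%. Per kb the median was 2.56 over the members and 1.29 over those genes. At 6 h Ier3, with 5, kept 33.3% of its control level, and the genes with 4 kept 62.4% (Fos), 58.6% (Jun) and 22.2% (Dusp1). The genes with 2 kept 72.2% (Junb), 11.6% (Egr1) and 52.8% (Ier5), those with 1 kept 35.4% (Fosb) and 60.9% (Jund), and Ier2, with 0, kept 20.7%.

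Detection in single cells depends on depth, so each cell was thinned at random to 4000 UMIs before cells were counted, which left out 0 control cells, 122 at 3 h and 284 at 6 h that were shallower. Ier2 was then detected in 50.02% of control cells (47.8 to 52.2%, Clopper-Pearson), 23.3% after 3 h (21.6 to 25.1%) and 12.9% at 6 h (11.7 to 14.2%). Before thinning these shares were 99.2%, 50.6% and 24.9%. Jund was detected in 44.5% (42.3 to 46.7%), 23.5% (21.8 to 25.3%) and 28.5% (26.7 to 30.2%) of thinned cells, and in 98.4%, 49.0% and 47.7% before thinning. The small excess of unthinned Jund shares at 3 h over 6 h was therefore the reverse of the order at equal depth, which had the order of the CPM.

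Junb was detected at equal depth in 16.8% of control cells (15.2 to 18.5%), 4.64% after 3 h (3.80 to 5.59%) and 9.92% at 6 h (8.80 to 11.1%), against 76.3%, 12.1% and 20.4% before thinning. This gene is where the mean expected over all random draws differed most from the draw used, at 15.0% of control cells, 4.41% and 10.9%. Egr1 was detected in 4.28% (3.44 to 5.26%), 1.74% (1.24 to 2.37%) and 0.530% (0.290 to 0.887%) of thinned cells, and in 30.4%, 6.05% and 1.06% before thinning. Dusp1 was detected in 4.14% (3.31 to 5.10%), 1.20% (0.795 to 1.75%) and 0.795% (0.493 to 1.21%), against 35.6%, 3.00% and 1.74% before thinning. For Ier2, Junb and Jund the intervals of all 3 libraries stayed apart from each other, for Egr1 as well, and for Dusp1 only the control stood apart.

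The scarcer genes gave few positive cells. Ier3 was detected at equal depth in 1.87% of control cells (1.33 to 2.56%), 0.535% after 3 h (0.277 to 0.933%) and 0.908% at 6 h (0.583 to 1.35%), and in 21.6%, 1.10% and 1.44% before thinning. Jun was detected in 2.07% (1.49 to 2.79%), 1.34% (0.904 to 1.90%) and 0.946% (0.613 to 1.39%), and in 18.6%, 4.40% and 2.22% before thinning. Fos was found in 11, 7 and 13 thinned cells (0.542%, 0.312% and 0.492%, and 8.71%, 1.44% and 1.09% before thinning) and Ier5 in 8, 13 and 7 (0.394%, 0.580% and 0.265%, and 6.40%, 1.69% and 0.581% before thinning). The Fos and Ier5 shares overlapped within counting error in all 3 libraries, so a difference was not detectable at this depth. Fosb was in 0 of the 2031 thinned control cells, for which 3 cells, or 0.148%, is the limit that a count of 0 allows and 0.181% the Clopper-Pearson bound in this draw, and in 1 cell of each treated library (1.18%, 0.127% and 0.0684% before thinning), so nothing can be read from it.

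**Figure D4:**
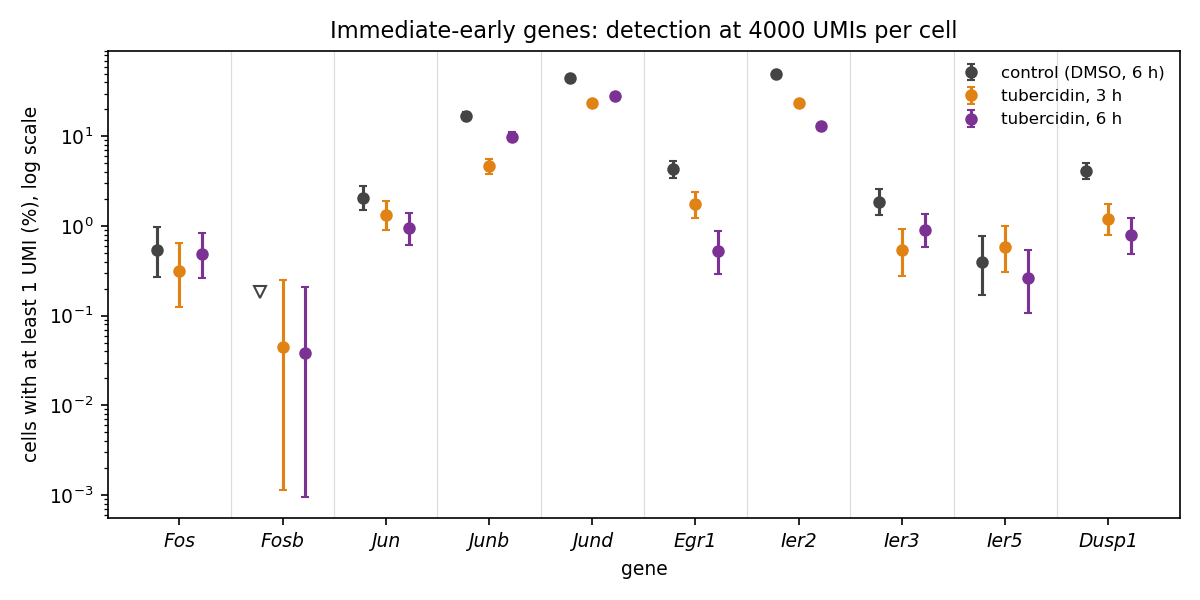
Percentage of cells with at least 1 UMI of each immediate-early gene after every cell was thinned to 4000 UMIs, on a log scale, with exact 95% binomial intervals for the 3 libraries. An open triangle stands at the upper interval bound, 0.181%, for Fosb in the control, where 0 cells were positive, and Ier2 runs from 50.02% in the control to 12.9% at 6 h.

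Free RNA in the droplets can give a UMI in a cell that does not express the gene, and no cell type known to lack these genes was present, so the level in barcodes ranked above 5000 and up to 15000 by UMIs, below every cell minimum, is set beside the cells. There Ier2 stood at 118 CPM with DMSO, 49.6 CPM after 3 h and 27.6 CPM after 6 h, Junb at 27.1, 8.42 and 17.7 CPM, and Jund at 91.3, 51.9 and 64.4 CPM, in each case lower than in the cells of the same library and in the same order over the libraries. Egr1 stood at 6.63 CPM in the control free RNA (4.20 to 9.94), 5.61 CPM at 3 h (2.90 to 9.81) and 1.42 CPM at 6 h (0.171 to 5.11), so at 3 h and 6 h its level in cells, 5.59 and 1.34 CPM, was not above that in free RNA. In the treated libraries the same held for Fos at 3 h (1.87 against 1.14 CPM, from 4 UMIs in free RNA), Dusp1 at 3 h (3.74 against 2.68 CPM) and Ier3 at 6 h (2.12 against 1.74 CPM), and in the control for Ier5 (1.73 against 1.38 CPM). These free RNA levels rest on few UMIs, 12 and 2 for Egr1 at 3 h and 6 h, 8 for Dusp1 at 3 h and 3 for Ier3 at 6 h. Whether the few positive cells of these genes in the treated libraries expressed them cannot be told from these levels. The part of free RNA in the shares was not tested.

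The members were also counted together in each thinned cell. In the control 21.2% of cells held none of the 10 genes, against 53.7% at 3 h and 54.4% at 6 h. At least 2 members were detected in 37.1% of control cells, 9.41% at 3 h and 9.01% at 6 h, and at least 3 in 7.93%, 1.20% and 0.681%. These counts were thus alike at 3 h and 6 h, although the genes that made them up differed, with more Ier2 at 3 h and more Junb and Jund at 6 h.

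Control cells could be thinned less severely, to 11000 UMIs, which shows how the genes were spread over untreated cells. The variance over cells divided by the mean (Fano factor, 1 where UMIs fall on cells at random) was 1.38 for Fos, 1.30 for Junb, 1.29 for Egr1, 1.27 for Jund, 1.12 for Ier2 and for Jun, 1.07 for Dusp1, 1.00 for Ier3 and Fosb and 0.985 for Ier5. The value of Fos rests on only 45 positive cells with at most 3 UMIs each, so its place at the top is uncertain. Junb was detected in 43.4% of the 219 cells with Egr1 (36.7 to 50.2%) and in 32.5% of the cells without it (30.3 to 34.7%). Of the 45 pairs of members, 28 had the other gene in a higher share of cells with the first than without it and 17 in a lower share. Egr1 with Junb was the 1 pair whose counting intervals did not overlap, and it was picked out of the 45. Pairs of other genes were not counted, so these numbers have no background. For the 45 cells with Fos, Junb was found in 48.9% (33.7 to 64.2%) against 33.3% of cells without Fos (31.2 to 35.4%), and Ier2 in 80.0% (65.4 to 90.4%) against 84.5% (82.8 to 86.1%). All of these cells come from 1 library, so the values describe that culture only.

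Because depth differed so much between libraries, levels were also taken within 3 groups of near equal size per library, split by UMIs per cell. Ier2 stood at 194, 182 and 165 CPM in the shallowest, middle and deepest control cells, at 79.3, 65.6 and 70.9 CPM at 3 h and at 37.7, 37.8 and 35.4 CPM at 6 h. Junb stood at 46.9, 40.5 and 41.2 CPM, at 13.04, 10.7 and 11.4 CPM, and at 25.4, 33.3 and 30.7 CPM. For both genes each control group lay above each group of the treated libraries, and each Junb group at 6 h above each group at 3 h. Against the shallowest group of the control alone, 6 members were at least 2-fold lower at 3 h and 4 at 6 h, with 6.23% and 4.92% of the 13587 genes lower in that setting.

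The other genes of the response were summarised from lists chosen with earlier results of these data known. Of 37 other immediate-early genes reaching a mean of 1 CPM (of 43 listed), 9 were at least 2-fold lower and 1 higher at 3 h, and 12 lower and 2 higher at 6 h, with medians of -0.37 and -0.56. Over the 13587 genes 6.20% were lower and 1.60% higher at 3 h and 5.11% and 4.56% at 6 h, with medians of -0.25 and -0.09, and the lists that follow stand beside the same values. The lowest at 3 h were Zfp36l1, which encodes a protein that binds AU-rich elements and destabilises mRNAs, with a log2 ratio of -2.17, and Myc, the growth-promoting transcription factor, at 16.2 CPM with DMSO against 3.41 CPM after 3 h, giving a log2 ratio of -1.96. Myc stood at 2.71 CPM at 6 h, a log2 ratio of -2.21, and Klf2 was the lowest there, at -2.52. Klf10, a gene induced by TGF-beta, was the 1 gene of the list at least 2-fold higher at 3 h, with 19.8 CPM with DMSO against 49.3 CPM, giving a log2 ratio of 1.28, followed by Dusp5, a phosphatase of nuclear ERK, at 0.66. At 6 h the highest were Gadd45g, a stress-response gene, at 1.64 CPM with DMSO against 5.15 CPM, giving a log2 ratio of 1.22, and Fosl1, a further Fos family member, at 0.686 and 2.39 CPM, a log2 ratio of 1.01. Fosl1 was thus higher at 6 h in a family whose other members here, Fos and Fosb, were not.

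Among 8 AP-1 partners (of 10 listed), the stress-induced factor Atf3 was the lowest at both times, at 4.97 CPM with DMSO, 1.67 CPM after 3 h and 1.34 CPM after 6 h, with log2 ratios of -1.16 and -1.35. It was the 1 partner past 2-fold at 3 h. Mafg, a small Maf protein, joined it at 6 h with a ratio of -1.20, while Fosl1 was the 1 partner higher. The next ratio at 3 h was that of Atf7, at -0.72, and the highest were those of the small Maf genes Mafk and Maff, at 0.35 and -0.09, with Mafk at 0.49 at 6 h. The medians were -0.34 and -0.29.

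Of 27 kinases and factors that act upstream of the immediate-early genes (of 28 listed), 1 was at least 2-fold lower at 3 h and 0 at 6 h. At either time 0 were higher. In a list of this size these counts are near the background of 6.20% lower and 1.60% higher at 3 h and 5.11% and 4.56% at 6 h. The medians were -0.34 and -0.28, against -0.25 and -0.09 over the 13587 genes. The 1 gene lower at 3 h was Rps6ka2, an ERK-activated kinase of the RSK family. Rps6ka2 stood at 23.7 CPM with DMSO, 9.30 CPM after 3 h and 11.4 CPM after 6 h. Its log2 ratios were -1.26 and -0.997, the latter just short of 2-fold. Its relatives parted, with Rps6ka3 at -0.92 at 3 h and Rps6ka1 the highest of the list at both times, at 0.30 and 0.58. The GTPase gene Nras was at 0.30 at 3 h, and the p38 kinase gene Mapk14 was at 0.50 at 6 h.

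The ERK feedback genes, which ERK signalling induces and which dampen it or carry its output, held 4 of 8 at least 2-fold lower at 3 h and 2 of 8 at 6 h, with 0 higher and medians of -1.04 and -0.56, against 6.20% and 5.11% lower and medians of -0.25 and -0.09 over the 13587 genes. Spry4, an inhibitor of receptor tyrosine kinase signalling, stood at 17.7 CPM with DMSO, 4.48 CPM after 3 h and 2.67 CPM after 6 h, with log2 ratios of -1.77 and -2.35. Spry2 was at -1.51 at 3 h, and Dusp6, the cytoplasmic ERK phosphatase, at -1.86 at 6 h. The transcription factor genes Etv4 and Etv5 were the highest, at 0.37 and 0.20 at 3 h and 0.67 and 0.28 at 6 h, so the list did not move as one. Of 10 heat shock genes (of 11 listed), 0 passed 2-fold in either direction at either time, a count that in so short a list is near the background of 6.20% lower and 1.60% higher at 3 h and 5.11% and 4.56% at 6 h. Their medians were -0.09 and -0.02. Hspa1b, the inducible HSP70 gene, had the lowest ratios, at -0.67 and -0.91, from 1.88 CPM in the control, followed by the mitochondrial chaperonin gene Hspd1 at -0.55 and -0.48. The highest were Hspb1 at 0.35 and Hsp90aa1 at 0.28 at 3 h, and Hsp90ab1 at 0.40 and Hsp90aa1 at 0.35 at 6 h.

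For the 3 members whose mean reached 10 CPM, the genes nearest in the pair of ratios at 3 h and 6 h were sought among 7630 named genes, by Euclidean distance over the 3 libraries. Junb was nearest to Bet1l, at a distance of 0.277 on the log2 scale, and Hist2h2ac, at 0.302. Jund was nearest to Hook1, at 0.00267, and Zfp101, at 0.0179. Ier2 was nearest to Rpp38, at 0.185, and Kti12, at 0.201. Junb and Ier2 thus had none of these 7630 genes within 0.1 of their course, whereas Jund, nearer to the bulk of genes, did. Genes with a mean below 10 CPM, predicted genes and the other members were not searched.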

How the data were processed

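The authors deposited 3 matrices of raw UMI counts per gene and barcode without a cell filter, 1 for each library, made with Cell Ranger 7.1.0 on mm10 per the submitters' processing notes. The annotation release and the counting of intronic reads are not given in the sources used here. The UMI minimum for a cell was 1/10 of the 99th percentile among the top 3000 barcodes of the library. Cells with fewer than 500 genes or over 20% mitochondrial UMIs were dropped, the latter being 0, 7 and 1 barcodes. Doublets were kept and no caller was run. UMI counts were summed over cells, then scaled to CPM, and ratios were taken as log2 of CPM + 1. CPM have exact Poisson intervals, shares Clopper-Pearson intervals and ratios exact conditional binomial intervals of the ratio without pseudocount. A count of 0 allows 3 counts, or 0.0286, 0.100 and 0.122 CPM.

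The members and lists were chosen with earlier results of these data known. The genes named are the members, the 2 highest and 2 lowest log2 ratios of each list in each comparison with the control, where the gene's mean reached 1 CPM, and the 2 nearest genes of each member whose mean reached 10 CPM. 1 gene that this rule names is not reported here. Cells were thinned without replacement. The 4000 UMIs come from the 10th percentile of the 6 h library, rounded down. Exon numbers, coordinates and 3' untranslated regions came from GENCODE M21 (GRCm38), and promoters from RefSeq. For exon numbers and 3' untranslated regions, the longest coding transcript with a stop codon was used. Transcripts that GENCODE tags as basic were taken before others. The statistics were tested on simulated counts. Alternatives covered the cell minimum, mitochondrial limit, cells with high UMIs, scaling, free RNA, cell weights, pseudocount, filter and thinning. TMM factors were from edgeR 4.0.16 (R 4.3.3), and the rest was done in Python 3.11.15 (scipy 1.17.1, pandas 2.3.3, numpy 2.4.6, with plots by matplotlib 3.10.9).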

Additional observations from a re-analysis of the deposited data

How the results depend on the processing

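No paired analysis was possible because each group is 1 library. Under 11 alternatives other than UMIs per cell, 1 of them (the shallowest of 3 equal groups of control cells) chosen after seeing the data, the ratios of Junb, Ier2, Ier3 and Dusp1 at 3 h and of Egr1, Ier2, Ier3 and Dusp1 at 6 h stayed past 2-fold. Jund at 3 h did so in 9 of the 11 and Egr1 at 3 h in 2. The sign of every member's ratio in the 3 comparisons held in all 11, except Fos at 6 h against 3 h, which held in 8 and ranged from -0.06 to 0.17. UMIs per cell without scaling, with a pseudocount, gave medians of -2.41 at 3 h and -2.85 at 6 h, with 8 and 9 members at least 2-fold lower. From 3 h to 6 h 0 members were at least 2-fold higher, Junb being at 0.65. In that setting 86.5% and 88.2% of all genes were at least 2-fold lower. Without the pseudocount every member was at least 2-fold lower in UMIs per cell at both times. The highest plain ratios were then 0.261 for Ier5 at 3 h and 0.118 for Junb at 6 h. Median-of-ratios factors gave a median of -0.87 at 3 h. TMM and median-of-ratios factors each gave 2 members lower at 6 h than at 3 h, Ier2 joining Egr1, with 0.618% and 0.640% of the 13587 genes lower. Over all genes reaching a mean of 10 CPM, 437 were lower and 70 higher at 3 h and 348 and 184 at 6 h; a minimum of 50 CPM gave 95, 22, 75 and 42, and no filter 855, 226, 707 and 679. From 3 h to 6 h the 3 filters gave 13, 4 and 33 lower and 129, 23 and 389 higher. At equal depth 8 members at 3 h and 9 at 6 h had a lower share than the control. These counts include Fos at both times and Ier5 at 6 h. At this depth the shares of Fos and Ier5 overlapped in all 3 libraries, and Fosb had at most 1 positive cell in each. Shares were not counted over all genes, so the counts of members have no background. The median log2 ratio of CPM + 1 over the 13587 genes was itself below 0, at -0.25 and -0.09. The 7 alternatives gave 6 to 10 members at both times, lowest where 2 UMIs were required.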

Other observations

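The immediate-early genes are compact, and 5 of the 10 (Jun, Junb, Jund, Ier2 and Ier5) have 1 exon, against 2.43% of the 12309 coding genes that reached a mean of 1 CPM. Egr1 and Ier3 have 2 exons, and Fos, Fosb and Dusp1 have 4. Over all coding genes, the share at least 2-fold lower differed with exon number. Among 236 genes with 1 exon, leaving out histone genes and the members, 11.4% were lower at 3 h and 20.3% at 6 h. Among 2182 genes with 2 to 4 exons the shares were 11.1% and 12.1%, and among 9828 genes with 5 or more exons they were 4.85% and 3.26%. Within the members, 3 of the 5 with 1 exon (Junb, Jund and Ier2) and 2 of the 5 with more exons (Ier3 and Dusp1) were at least 2-fold lower at 3 h. At 6 h it was 1 of the 5 with 1 exon (Ier2) and 3 of the 5 with more exons (Egr1, Ier3 and Dusp1). The 763 coding genes with 5 or more ATTTA per kb of 3' untranslated region were at least 2-fold lower in 12.1% of cases at 3 h and 10.1% at 6 h, against 6.18% and 5.22% of all coding genes. Genes share chromosomal neighbourhoods and regulators and are not replicates, so these shares describe the 3 libraries and were not tested.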
